A study of Mus musculus with 5 samples.

Results

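YAP peaks without a TEAD peak were chosen by position, as the regions of the YAP ChIP-seq (chromatin immunoprecipitation combined with sequencing) list that shared no base pair with any region of the TEAD list. They numbered 867 of 10293 YAP peaks, or 8.42% (95% Wilson interval 7.90 to 8.98), and the other 9426 YAP peaks shared at least 1 bp with TEAD. Because this rule uses the YAP and TEAD lists themselves, the number of these peaks and their distance to TEAD are descriptions and not findings.

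YAP is a transcriptional coactivator that the Hippo kinases keep out of the nucleus. It has no DNA-binding domain of its own and reaches chromatin through partners, chiefly the TEAD family of DNA-binding proteins, which recognize a short DNA motif. Its WW domains also bind other factors, such as RUNX proteins. Myc binds mainly at active promoters, where RNA polymerase II (RNAPol2) is engaged.

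The cells were 3T9 mouse embryonic fibroblasts, immortalized and, per the series design, quiescent and confluent. All samples came from the 3T9MycER genotype, which expresses MycER throughout, a Myc protein held inactive until 4-hydroxytamoxifen (OHT) is added. The cells also carried a virally introduced, doxycycline-inducible YAPS127A, an activated YAP mutant. Whether the line is 1 clone is not given in the sources used here. Both proteins were switched on in the Myc, TEAD, RNAPol2 and YAP samples, with 400 nM OHT and 2 µg/ml doxycycline, and no list without either agent was used. There was 1 sample per antibody. The labels do not separate introduced Myc and YAP from the endogenous proteins, and peak lists hold no expression values against which the fibroblast label could be checked. YAP chromatin was fixed with DSG before 1% formaldehyde and the other chromatin with 1% formaldehyde alone, so that fixation and antibody cannot be told apart where the YAP list is compared with another. The fifth sample, the input, was not analysed here. Whether it is the control library behind every fold and control level below is not given in the sources used here, and neither is whether that library came from cells given OHT and doxycycline.

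The YAP library held 29528304 tags and the TEAD library 31770727, against 20441605 for Myc, 38345189 for RNAPol2 and 60189064 for the one control library used for all lists. Replicate spread could not be measured, since each antibody had a single library, and no test was run. The intervals below treat peaks as independent and cover counting error only, and reads amplified by PCR are not independent molecules. Every list shares its control library with the others.

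Most YAP peaks without TEAD were low and narrow. Pileup is the number of extended ChIP tags at the summit of a peak. It ran from 14 to 195 at these peaks, with a median of 21 and quartiles of 19 and 24, whereas at the YAP peaks with TEAD the median was 26 and the quartiles 21 and 34. Fold enrichment, the pileup over the local control level, had a median of 5.82 without TEAD and 6.55 with it. The highest fold was 10.3 without TEAD and 63.95 with it. The median width was 221 bp against 334 bp. The caller's smallest width, 203 bp, was that of 162 of the 867 peaks, or 18.7% (16.2 to 21.4), as against 5.64% of all YAP peaks.

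The share of YAP peaks that lacked TEAD was lower among high and wide peaks. It was 16.9% (14.7 to 19.2) at pileups of 18 and 19, 7.12% (5.86 to 8.63) at pileups of 25 to 27 and 0.574% at pileups of 36 to 45, where 6 of 1046 peaks lacked it. Above that, at pileups of 46 to 316, it was 0.847% (0.446 to 1.60). By width, it was 24.99% (23.2 to 26.9) from 203 to 231 bp and 0.242% (0.104 to 0.566) at 480 bp or wider. None of the 1060 YAP peaks of highest fold, from 11.54 upward, lacked TEAD, which allows a share of up to 0.283%. By −log10 q, the caller's corrected p-value, 135 of the 867 peaks reached 10, beside 4555 of the 9426 YAP peaks with TEAD. Of all YAP peaks that reached 10, 2.88% (2.44 to 3.40) lacked TEAD, beside 8.42% of all YAP peaks.

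**Figure D1:**
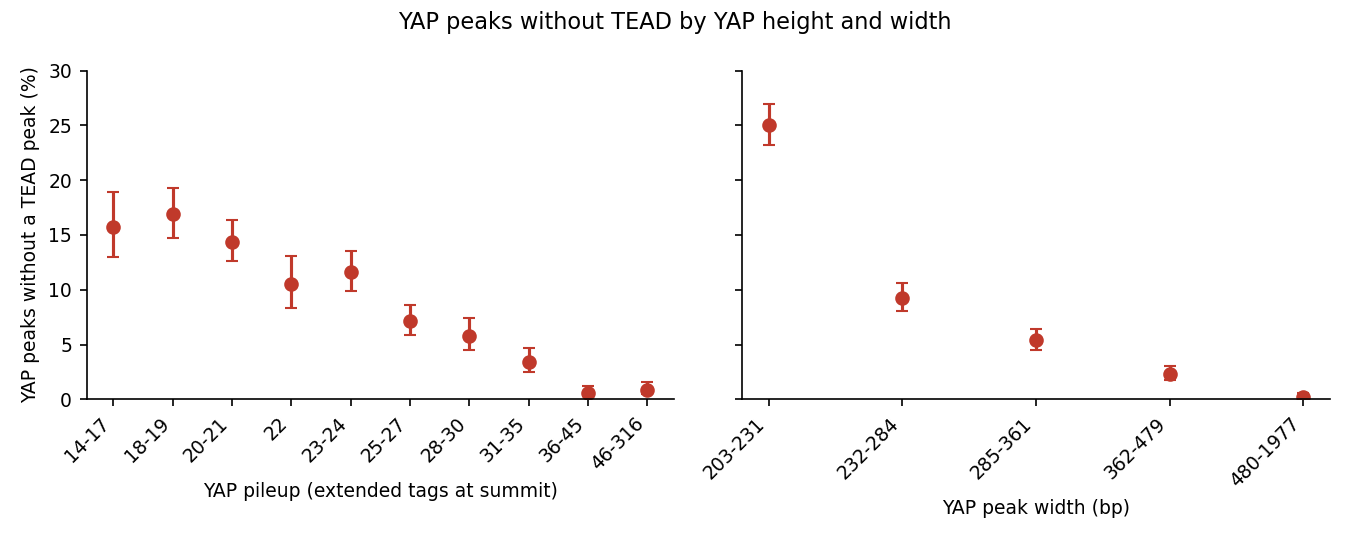
Percentage of YAP peaks without a TEAD peak (vertical axis) by YAP pileup, in up to 10 classes of tags (left), and by YAP peak width in bp, in 5 classes (right), with 95% Wilson intervals. The share goes from 16.9% at pileups of 18 and 19 to 0.574% at pileups of 36 to 45, and from 24.99% in the narrowest class to 0.242% in the widest.

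At the edge of the rule, 5 YAP peaks without TEAD lay 10 bp or less from a TEAD peak, and 6 with TEAD shared 10 bp or less with one. Just inside were chr15:6920919-6921163 and chr4:151699318-151699520, with 0 bp between them and TEAD and pileups of 24 and 18, and chr5:123349259-123349490, 5 bp from TEAD, with a pileup of 15. Just outside were chr15:34299231-34299464 and chr2:26865756-26866061, which shared 1 bp with TEAD and had pileups of 22 and 17, and chr11:106774996-106775209, which shared 2 bp and had a pileup of 21. Pileups on the 2 sides of the edge overlapped.

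Distance to TEAD varied widely beyond that edge. The median distance to the nearest TEAD peak was 6401 bp, with quartiles of 948.5 and 21550 bp. Of the 867 peaks, 221 lay within 1000 bp of a TEAD peak (25.5%, 22.7 to 28.5) and 527 within 10000 bp (60.8%, 57.5 to 64.0). The TEAD peaks nearest to them were of ordinary height. Their median TEAD fold was 7.81 for the 109 peaks less than 250 bp away and 7.32 for the 340 peaks at 10000 bp or more, beside 7.64 in the whole TEAD list. From summit to summit, the median distance to TEAD was 6886 bp, and 43 bp for YAP peaks with TEAD.

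The files give no TEAD signal where no TEAD peak was called. At the YAP peaks with TEAD, weighted to the pileup and width of those without, the TEAD pileup had a median of 50 and a lowest decile of 27. The lowest TEAD pileup in the list was 13, and it was 17 among TEAD peaks whose control level was over 1.5 times its floor.

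To compare YAP peaks with and without TEAD at like height and width, the peaks with TEAD were weighted to the spread of the others over 50 classes of pileup and width. The weighted peaks had the same median pileup, 21, and a median width of 225 bp.

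YAP peaks without TEAD mostly lacked Myc and RNAPol2 as well. A Myc peak overlapped 67 of them, or 7.73% (6.13 to 9.70), where 30.9% of all YAP peaks overlapped one. Among YAP peaks with TEAD the share was 33.0% (32.1 to 34.0), and 24.7% at like pileup and width. The difference at like pileup and width was -17.0 percentage points (-19.2 to -14.7). With the stronger 50% of each list it was -4.08 points (-7.63 to -0.528).

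For RNAPol2 the numbers were 141 peaks, or 16.3% (14.0 to 18.9), where 48.0% of all YAP peaks overlapped RNAPol2. With TEAD the share was 50.9% (49.9 to 52.0), and 40.3% at like pileup and width, a difference of -24.0 points (-27.0 to -21.1). Both factors were present at 57 of the peaks without TEAD (6.57%, with 27.0% of all YAP peaks), Myc without RNAPol2 at 10 (1.15%, with 3.87%) and RNAPol2 without Myc at 84 (9.69%, with 21.0%). Neither was present at 716, or 82.6% (79.9 to 85.0), where 48.1% of all YAP peaks had neither. At like pileup and width 56.4% of YAP peaks with TEAD had neither. The 716 peaks with neither lay a median of 8076.5 bp from TEAD, and the 57 with both a median of 276 bp.

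**Figure D2:**
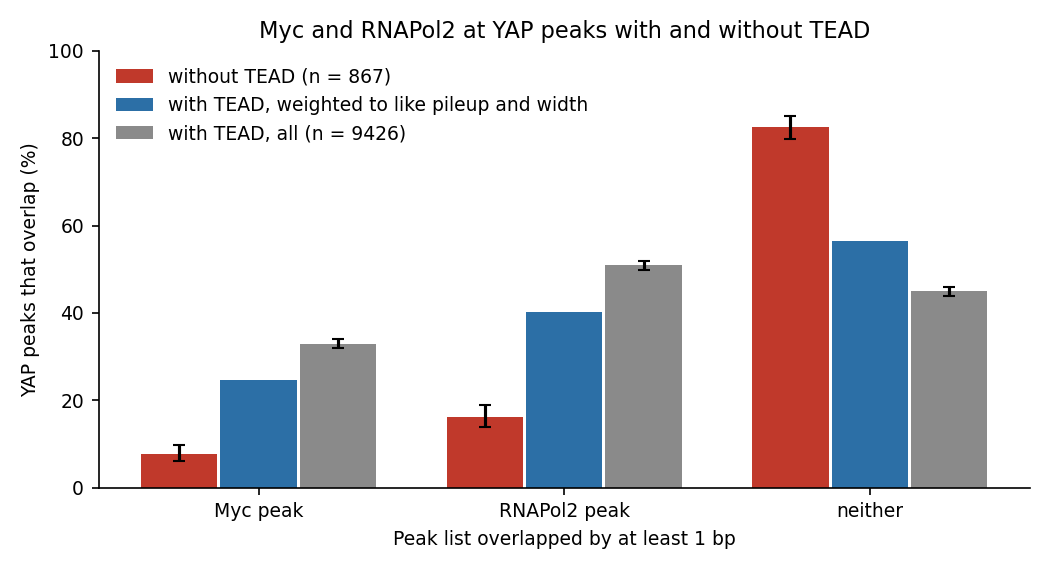
Percentage of YAP peaks (vertical axis) that overlapped a Myc peak, an RNAPol2 peak or neither (horizontal axis), for peaks without TEAD, peaks with TEAD weighted to like pileup and width, and all peaks with TEAD. Bars with error bars show 95% Wilson intervals, and the weighted bars carry none. Peaks without TEAD stand at 7.73%, 16.3% and 82.6%, and the weighted peaks with TEAD at 24.7%, 40.3% and 56.4%.

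Overlap with Myc and RNAPol2 was also split by distance to TEAD. The rule used that distance, so the split is a description. Part of its outcome is built in, because a peak on a Myc or RNAPol2 peak that also overlaps TEAD tends to lie near TEAD. This held for 41 of the 67 peaks with Myc and 81 of the 141 with RNAPol2. Of the 109 peaks less than 250 bp from a TEAD peak, 24.8% (17.6 to 33.6) overlapped Myc and 39.4% (30.8 to 48.8) overlapped RNAPol2. Of the 112 peaks at 250 to under 1000 bp, 24.1% (17.1 to 32.8) overlapped Myc and 42.0% (33.2 to 51.2) RNAPol2. These intervals contain the shares of YAP peaks with TEAD at like pileup and width.

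Farther out the shares were much lower. Among the 306 peaks at 1000 to under 10000 bp, Myc was found at 1.31% (0.509 to 3.31) and RNAPol2 at 7.52% (5.06 to 11.03). The 340 peaks at 10000 bp or more had Myc in 2.65% of cases (1.40 to 4.95) and RNAPol2 in 8.24% (5.76 to 11.6). The intervals of the nearer and the farther peaks did not overlap for either factor, which describes the split and is no test of it. Median pileups differed little, from 20 nearest to TEAD to 22 at 1000 to under 10000 bp, and median widths went from 233 bp nearest to TEAD to 216 bp farthest from it.

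**Figure D3:**
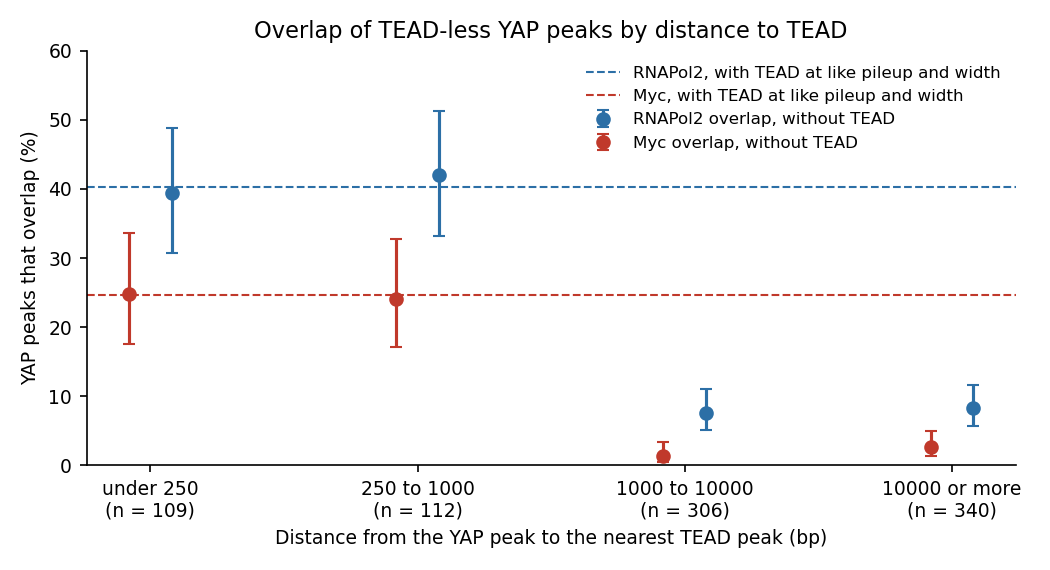
Percentage of YAP peaks without TEAD that overlapped a Myc or an RNAPol2 peak (vertical axis) by distance to the nearest TEAD peak in bp (horizontal axis), with 95% Wilson intervals. Dashed lines are YAP peaks with TEAD at like pileup and width, at 24.7% for Myc and 40.3% for RNAPol2. The nearer 2 classes lie at the lines and the farther 2 lie below 10%.

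The definition of TEAD overlap changed the difference in Myc and RNAPol2 overlap. If a YAP peak was instead counted as lacking TEAD when no TEAD summit lay within 250 bp of its own, 1687 peaks qualified. They differed from the rest by 1.53 points for Myc (-0.904 to 3.97) and by -0.118 points for RNAPol2 (-2.82 to 2.58), both intervals including 0. Of these, 829 touched a TEAD peak with summits more than 250 bp apart. Among those 829 peaks, Myc was found at 49.1% (45.7 to 52.5) and RNAPol2 at 67.9% (64.7 to 71.0).

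Where a YAP peak without TEAD did overlap Myc, the Myc peak was mostly a wide one. The Myc peaks concerned had a median width of 1043 bp, beside 640 bp for those at YAP peaks with TEAD and 605 bp in the whole Myc list. Their median Myc fold was 13.1, beside 8.49 and 9.21. YAP and Myc summits were a median of 275 bp apart, and 13 of 67 lay within 100 bp of each other (19.4%, 11.7 to 30.4). At YAP peaks with TEAD the median was 149 bp and the share 36.2% (34.5 to 37.9). Of the 67 peaks, 41 lay on a Myc peak that overlapped TEAD at another position (61.2%, 49.2 to 72.0), beside 69.4% of all Myc peaks.

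The RNAPol2 peaks overlapped by YAP peaks without TEAD were similar in this respect. Their median width was 1420 bp, beside 938 bp for RNAPol2 peaks at YAP peaks with TEAD and 543 bp in the whole list. Their median fold was 15.7, beside 9.56 and 5.57. Summits of YAP and RNAPol2 were a median of 455 bp apart, and 166 bp at YAP peaks with TEAD. TEAD lay elsewhere on the RNAPol2 peak in 81 of 141 cases (57.4%, 49.2 to 65.3), beside 28.1% of all RNAPol2 peaks. For neither factor was this share matched on the width or fold of the partner peaks, and wider peaks have more room to overlap TEAD. The partner widths, folds and summit distances at YAP peaks with TEAD, for Myc and for RNAPol2, were not weighted to like YAP pileup and width.

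Summit distances, which do not depend on the width of the partner peaks, showed the same order. The median distance to the nearest Myc summit was 25470 bp without TEAD and 15800 bp with TEAD at like pileup and width. To the nearest RNAPol2 summit the medians were 14847 bp and 4851 bp.

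A Myc summit lay within 1000 bp of 12.5% of the YAP summits without TEAD (10.4 to 14.8), of 29.7% with TEAD at like pileup and width and of 33.9% of all YAP summits. For RNAPol2 within 1000 bp the shares were 17.6% (15.3 to 20.3), 40.4% and 47.0%.

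Within 10000 bp the gap was smaller. A Myc summit was then found for 33.0% of YAP summits without TEAD (29.9 to 36.2) and for 47.6% of all YAP summits, with a difference at like pileup and width of -11.3 points (-14.8 to -7.77). An RNAPol2 summit was found for 43.5% (40.2 to 46.8) and 60.6%, with a difference of -12.2 points (-15.9 to -8.57). Without chromosome 15 these differences were -8.37 and -6.61 points, and with the stronger 50% of each list they were -0.830 (-6.12 to 4.46) and -6.11 points (-12.4 to 0.196). Both turned positive when lacking TEAD meant no TEAD summit within 250 bp, at 7.41 points (4.67 to 10.2) for Myc and 5.09 points (2.39 to 7.79) for RNAPol2.

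**Figure D4:**
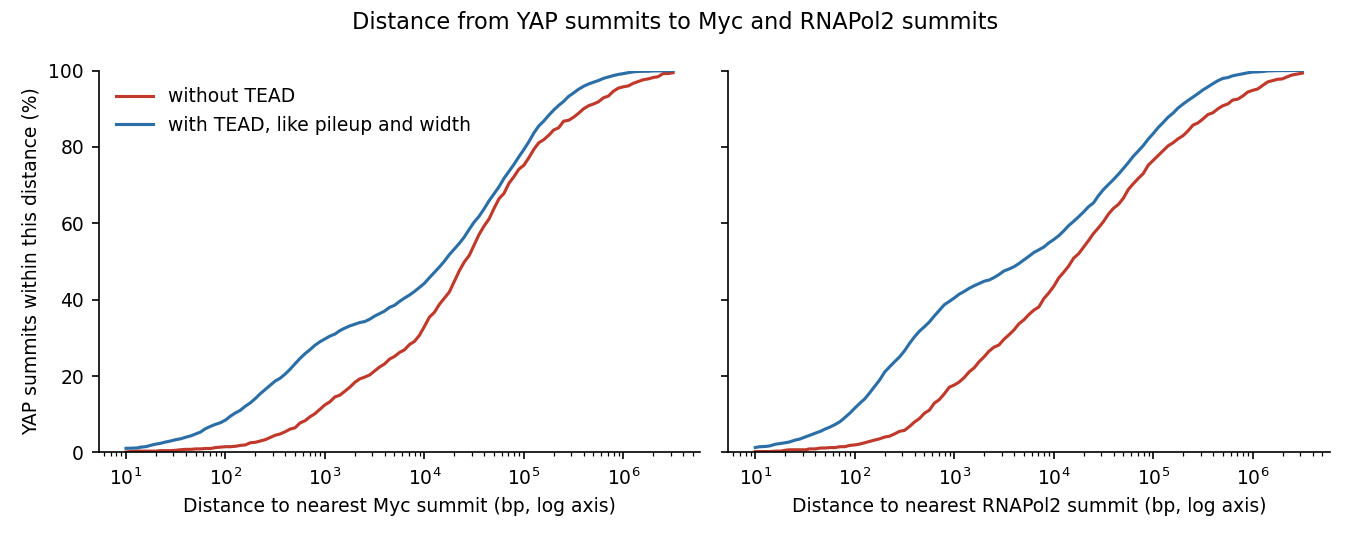
Cumulative percentage of YAP summits (vertical axes) by distance to the nearest Myc summit (left) and RNAPol2 summit (right), in bp on log axes, for YAP peaks without TEAD and YAP peaks with TEAD weighted to like pileup and width. At 1000 bp the curves stand at 12.5% and 29.7% for Myc, and at 17.6% and 40.4% for RNAPol2.

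At like pileup and width, YAP peaks with TEAD were less frequent nearby and YAP peaks without TEAD more frequent. An additional YAP summit lay within 10000 bp of 27.8% of the YAP peaks without TEAD (24.9 to 30.9), beside 32.4% of all YAP peaks, and the difference at like pileup and width was -3.22 points, with an interval that included 0 (-6.58 to 0.144). For a YAP peak with TEAD within 10000 bp the shares were 24.7% (21.9 to 27.7) and 30.8%, a difference of -4.99 points (-8.24 to -1.74). For another YAP peak without TEAD they were 4.73% (3.51 to 6.35) and 3.11%, a difference of 2.02 points (0.510 to 3.53). The weighting did not cover chromosome or control level. Chromosome 15 held 284 of the 867 peaks without TEAD. The neighbours chr9:3026472-3026688 and chr9:3026742-3026948 had control levels of 31.9 and 33.0 times the floor. How much such peaks added to the difference was not tested.

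YAP peaks without TEAD were concentrated on chromosome 15. This chromosome held 284 of the 867, or 32.8% (29.7 to 35.95), beside 14.2% of all YAP peaks. Among YAP peaks with TEAD it held 12.4% (11.8 to 13.1), and 10.3% at like pileup and width, a difference of 22.5 points (19.2 to 25.8). Seen from the chromosome, 19.5% of its YAP peaks lacked TEAD (17.5 to 21.6), and 6.60% elsewhere (6.10 to 7.13).

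The excess was larger among peaks of higher −log10 q. Of the peaks without TEAD with a −log10 q under 5, 41 of 152 lay on chromosome 15 (27.0%, 20.6 to 34.5). At a −log10 q of 10 or more, 70 of 135 did (51.9%, 43.5 to 60.1). For YAP peaks with TEAD the same classes gave 16.01% (13.8 to 18.5) and 11.6% (10.7 to 12.5). Median pileups were larger on chromosome 15 than elsewhere, at 24 and 20 without TEAD and at 29 and 25 with TEAD. The 5 peaks without TEAD of highest YAP fold lay on chromosomes 5, 7, 19 and X, and the highest fold on chromosome 15 was 8.83. So few peaks cannot show whether the excess holds by fold. Nearness to TEAD made little difference, since chromosome 15 held 31.2% (23.3 to 40.4) of the peaks less than 250 bp from TEAD and 31.5% (26.8 to 36.6) of those at 10000 bp or more.

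Along chromosome 15 the share of YAP peaks without TEAD was not even. In windows of 10 Mb it was highest from 20 to 30 Mb, at 34.4% (25.6 to 44.3), and lowest from 90 to 100 Mb, at 7.62% (3.91 to 14.3). All 8 windows up to 80 Mb were at 18.0% or more and all 3 beyond it at 13.8% or less. The number of TEAD peaks also differed. From 20 to 30 Mb there were 219 TEAD and 96 YAP peaks, and from 90 to 100 Mb 384 and 105. The whole chromosome held 4027 of 48571 TEAD peaks and 1457 of 10293 YAP peaks. Whether the share without TEAD follows the number of TEAD peaks called was not tested.

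The control level also moved with position. It was computed as pileup over fold enrichment and is given in multiples of its floor, the lowest level in the YAP list. Over all YAP peaks of a window, its median was 1.69 from 20 to 30 Mb of chromosome 15, 1.83 from 60 to 70 Mb and 1.23 from 90 to 100 Mb. On this chromosome the median was 1.38 at YAP peaks without TEAD and 1.63 at those with TEAD. Elsewhere it was 1.00 and 1.09. With control level added to the classes of pileup and width, the difference in the share on chromosome 15 was 23.8 points (20.6 to 27.0), and among YAP peaks with a control level of at most 1.5 times the floor it was 18.7 points (15.5 to 21.9).

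TEAD at the YAP peaks of chromosome 15 had a similar median pileup to elsewhere and a lower median fold. For this, YAP peaks with TEAD were weighted separately on chromosome 15 and elsewhere, each set to its own peaks without TEAD. The median TEAD pileup was 49 on chromosome 15 and 48 on the others, and the median TEAD fold was 9.74 and 13.0. The peaks without TEAD had median YAP pileups of 24 on chromosome 15 and 20 elsewhere, so YAP height was not alike. Whether TEAD was as high on chromosome 15 at like YAP height was not tested.

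In percentage points, other chromosomes departed less. Chromosome X held 29 of the peaks without TEAD, and 18.7% of its 155 YAP peaks lacked TEAD (13.3 to 25.6). Its share was 3.34% (2.34 to 4.76) without TEAD, 1.51% of all YAP peaks and 1.62% with TEAD at like pileup and width. The median control level on chromosome X was 1.00 at both kinds of peak. Chromosome 19 held 8.65% (6.96 to 10.7) of the peaks without TEAD and 6.08% of all YAP peaks, a difference at like pileup and width of 3.06 points (1.03 to 5.09).

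Several chromosomes were on the low side. Chromosome 12 was lowest, with 2 of its 149 YAP peaks lacking TEAD (1.34%, 0.369 to 4.76), and it held 0.231% of the peaks without TEAD and 1.55% of those with TEAD at like pileup and width. On chromosomes 4, 14 and 16 the share of YAP peaks lacking TEAD was 2.82%, 3.57% and 3.66%. Chromosome 1 held 11 peaks without TEAD, 1.27% (0.710 to 2.26) of them, beside 4.27% of all YAP peaks, and its share was 0.261 times that of peaks with TEAD at like pileup and width. For chromosome 15 this ratio was 3.19. Chromosome 10 held 16, or 1.85% (1.14 to 2.98), beside 3.93% of all YAP peaks. Its control level had medians of 1.20 without TEAD and 1.52 with TEAD. Whether the share of a chromosome follows its control level was not tested.

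**Figure D5:**
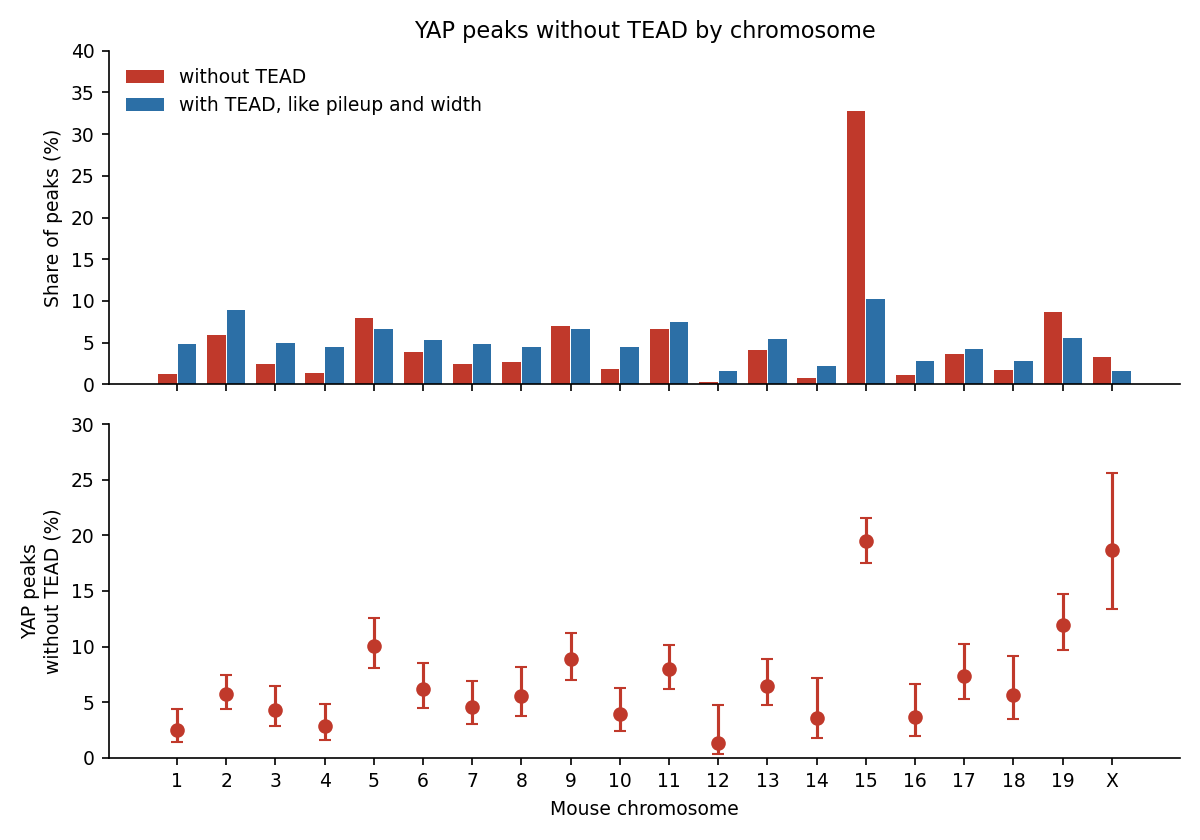
Upper axis, percentage of the YAP peaks without TEAD, and of those with TEAD weighted to like pileup and width, on each mouse chromosome; lower axis, percentage of the YAP peaks of each chromosome that lacked TEAD, with 95% Wilson intervals. Chromosome 15 holds 32.8% of the peaks without TEAD against 10.3%, and in the lower axis chromosomes 15 and X stand at 19.5% and 18.7%.

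Overlap with Myc and RNAPol2 was lower both on chromosome 15 and elsewhere. Within chromosome 15, 7.39% of the YAP peaks without TEAD overlapped Myc, a difference at like pileup and width of -21.6 points (-26.6 to -16.5), and 14.8% overlapped RNAPol2, a difference of -25.7 points (-31.8 to -19.6). On the other chromosomes 7.89% overlapped Myc and 17.0% RNAPol2, with differences of -16.3 points (-19.0 to -13.6) and -22.5 points (-26.1 to -19.0). For summits within 10000 bp the differences were larger on chromosome 15, at -25.5 points (-32.6 to -18.4) for Myc and -28.7 (-35.8 to -21.6) for RNAPol2, than elsewhere, at -8.37 (-12.6 to -4.09) and -6.61 (-11.1 to -2.15).

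Over all chromosomes, the control level was near its floor more often at YAP peaks without TEAD than at those with TEAD. The medians differed little, at 1.07 without TEAD and 1.09 with TEAD at like pileup and width. It lay within 5% of the floor at 411 of them, or 47.4% (44.1 to 50.7), beside 35.5% of all YAP peaks, and the difference at like pileup and width was 8.59 points (4.97 to 12.2). The level was over 1.5 times the floor at 137, or 15.8% (13.5 to 18.4), beside 21.8% of all YAP peaks, a difference of -2.93 points (-5.62 to -0.245). The latter difference changed sign in 5 of 13 alternatives, among them pileup classes alone (1.35 points, -1.19 to 3.89) and YAP peaks with a −log10 q of at least 10 (10.2 points, 2.98 to 17.4). It was -22.7 points (-29.4 to -16.0) within chromosome 15 and -5.92 points (-7.99 to -3.86) on the others.

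A small group of 8 YAP peaks without TEAD had a control level over 5 times the floor, from 18.6 to 43.5 times. They were 0.923% (0.468 to 1.81) of the peaks without TEAD. Over all YAP peaks 36, or 0.350%, exceeded that level, and 28 of these had TEAD. At like pileup and width 0.638% of YAP peaks with TEAD exceeded it. The difference was 0.284 points (-0.425 to 0.994), an interval that spanned both signs. The 8 peaks without TEAD had pileups of 132 to 195 and folds of only 1.40 to 2.44, and none overlapped RNAPol2 while 4 overlapped Myc. The highest control level was at chr15:74916668-74916963, with a YAP pileup of 195, a YAP fold of 1.40 and a Myc peak of fold 2.52. The next were neighbours on chromosome 9, chr9:3026742-3026948 and chr9:3026472-3026688, with control levels of 33.0 and 31.9, inside 1 Myc peak of fold 2.27. Of the 15 YAP peaks without TEAD with a pileup of 36 or more, these 8 made up the majority. Without every YAP peak over 5 times the floor, the differences at like pileup and width were -17.0 points for Myc, -23.6 for RNAPol2 and 22.6 for chromosome 15.

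The individual regions of highest YAP fold without TEAD are given in mm9 coordinates. The highest was chr19:48895960-48896290, with a YAP pileup of 34, a fold of 10.31 and a control level of 1.03, and with no TEAD peak for 12206 bp and no RNAPol2 peak for 900988 bp. Then came chr19:46415898-46416203, with a pileup of 41 and a fold of 9.92, 1649 bp from TEAD, 1502 bp from Myc and 1494 bp from RNAPol2. These 2 regions therefore differed in their surroundings. The first had no peak of the other 3 lists closer than 12206 bp, and the second had a peak of each within 1649 bp.

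Next, chr5:90653656-90653925, had a fold of 9.52 and overlapped an RNAPol2 peak of fold 8.37. It lay 274 bp from a TEAD peak of fold 12.49 and 308 bp from a Myc peak of fold 41.59. After it, chr7:136835828-136836136, had a fold of 9.36 and lay 152 bp from TEAD and 146 bp from RNAPol2. On chromosome X, chrX:70738948-70739176 had a fold of 9.05, lay 7700 bp from TEAD and overlapped an RNAPol2 peak of fold 8.92. Of all 2110 YAP peaks with a fold over 9, these 5 were the ones without TEAD.

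Among the peaks without TEAD that overlapped Myc, the highest YAP fold was 8.11, at chr5:137429305-137429665. It lay 119 bp from TEAD, on a Myc peak of fold 13.65 and an RNAPol2 peak of fold 18.49. It was followed by chr2:30207216-30207445 (YAP fold 7.80, 249 bp from TEAD), chr6:50331519-50331874 (7.23, 505 bp), chr15:77136366-77136602 (7.17, 509 bp) and chr11:69446969-69447253 (7.13, 490 bp). All 5 overlapped RNAPol2 and lay within 509 bp of a TEAD peak, and at chr15:77136366-77136602 the YAP and Myc summits were 11 bp apart.

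Among those that overlapped RNAPol2 and not Myc, the regions on chromosomes 5 and X named above were highest, and chr18:79305007-79305231 came next, with a YAP fold of 7.49, 1933 bp from TEAD and on an RNAPol2 peak of fold 11.72. Gene names and sequences of these regions are not given here, since the reference tables used were of another genome build than the files.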

How the data were processed

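Sample titles gave the antibody groups. Tools named in the submitters' processing notes are MACS2 2.0.9, BWA 0.6.2 and SAMtools, with mm9 as the build. Narrow peaks were called by the authors separately for each sample, per the file headers, at a p-value cutoff of 1e-05, with at most 2 tags of 51 bp per position, the larger library scaled towards the smaller, and a local background from control windows of 1000 and 10000 bp. The deposited signal is the pileup at the summit. Deposited fold values divide the pileup by that local background (a ratio, without pseudocount), and the deposited −log10 p and −log10 q are the caller's. Deposited positions are 1-based.

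Overlap needed at least 1 bp. YAP peaks with TEAD were weighted to the strata of those without (up to 10 classes of pileup by 5 of width). Intervals of shares are 95% Wilson intervals, and those of weighted differences are analytic binomial intervals summed over strata. Named regions were picked by a rule: the 5 highest YAP folds, the 5 highest with Myc, the 3 highest with RNAPol2 and without Myc, the 3 highest control levels and the 3 nearest the edge of the rule on either side. The group of 8 peaks of very high control level and the classes of distance to TEAD were chosen after the values were seen. So were the split at chromosome 15, its windows and its −log10 q classes. The peaks and the comparisons were chosen with earlier results of these data known. The tools were numpy 2.4.6, scipy 1.17.1, pandas 2.3.3 and matplotlib 3.10.9 under Python 3.11.15, and the routines were tested on simulated data.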

Additional observations from a re-analysis of the deposited data

How the results depend on the processing

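Differences are in percentage points, YAP peaks without TEAD minus those with TEAD at like pileup and width. No paired analysis was possible because each antibody had 1 sample and the labels give no replicate numbers. Peaks with a signal under the calling threshold are not in the lists, so that an absent TEAD, Myc or RNAPol2 peak is not absent binding, least of all for Myc, the shallowest library. Causes of the changes below were not tested. Control-level classes, the results without chromosome 15 and those without control levels over 5 times the floor were added after seeing the data.

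The share of YAP peaks without TEAD was 6.87% with no TEAD peak within 500 bp, 16.4% with no TEAD summit within 250 bp, 2.88% for YAP peaks and 11.7% for TEAD peaks with a −log10 q of at least 10, 5.30% with the stronger 50% of each list, 6.30% without chromosomes 10, 15 and 19, 6.60% without chromosome 15 and 9.07% without control levels over 1.5 times the floor.

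The Myc difference was -21.2 with the 500 bp rule, 1.53 with the summit rule, -20.7 and -11.6 with −log10 q of at least 10 for YAP and for TEAD, -4.08 with the stronger 50%, -21.5 with pileup classes alone, -25.3 with no classes and -12.5 with Myc −log10 q of at least 10. The RNAPol2 difference in the same order was -30.1, -0.118, -32.6, -17.5, -16.0, -28.5 and -34.7, and -19.2 with RNAPol2 −log10 q of at least 10. The other 9 alternatives for each moved by less than the interval.

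For Myc summits within 10000 bp the difference was -18.3 with the 500 bp rule, 7.41 with the summit rule, -4.36 with TEAD −log10 q of at least 10, -0.830 with the stronger 50%, -6.59 without chromosomes 10, 15 and 19, -15.9 with no classes and -7.63 with Myc −log10 q of at least 10. For RNAPol2 summits it was -18.0, 5.09, -6.20, -6.11, -5.53 and -18.7 in the first 6 of these, -18.8 with YAP −log10 q of at least 10 and -6.61 without chromosome 15.

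No chromosome 15 value exists without that chromosome, and no control-level value was computed after control levels over 1.5 times the floor had been left out or put into the classes. The difference in control levels over 1.5 times the floor turned to 3.07 with the summit rule, 10.2 and 0.651 with −log10 q of at least 10 for YAP and for TEAD, 5.80 with the stronger 50% and 1.35 with pileup classes alone, and was -6.53 with no classes and -5.92 without chromosome 15. The chromosome 15 difference stayed above 0 in all 13 alternatives. It was 18.9 with the summit rule, 46.7 with YAP −log10 q of at least 10, 35.5 with the stronger 50% and 18.7 without control levels over 1.5 times the floor.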
